A study of Mus musculus with 2 samples.

Results

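Matrix metalloproteases (MMPs) and their tissue inhibitors (TIMPs) were followed in single colonic polyp-infiltrating myeloid cells. The 10 genes described, taken from 32285 genes in the count matrices, were Mmp2, Mmp8, Mmp9, Mmp12, Mmp13, Mmp14, Mmp19, Timp1, Timp2 and Timp3. They were chosen by name, with earlier results of these data known. Of the 10 genes, 9 reached 100 unique molecular identifiers (UMIs, the molecules counted) in the cells kept. The 2 libraries came from WT mice and from KO mice, which lack the fungal β-glucan receptor Dectin-1, all on the C57BL6/J strain and 26 weeks old. Both genotypes received the carcinogen azoxymethane and 3 cycles of 1% dextran sulfate sodium over 16 weeks, a protocol that yields inflammation-driven polyps. Cells from colorectal polyps, pooled from several mice per genotype, were sorted for CD11b+ and CD11c+ cells. There was 1 library per genotype, so no difference between WT and KO could be tested, and mice within a library could not be told apart. The purpose of the comparison was to see how myeloid cells of the polyp differ when Dectin-1 is missing.

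MMPs are zinc-dependent enzymes that cut collagens, elastin, proteoglycans and other extracellular proteins, and most are secreted as inactive proenzymes. TIMPs bind the active site of MMPs and block it. In inflamed and tumor-bearing colon, neutrophils and macrophages are known sources of MMPs, which act on the matrix, on growth factors bound to it and on cytokines.

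After filtering, 2696 WT and 1999 KO cells remained, with 12283285 and 7559096 UMIs and medians of 3412.5 and 2671 UMIs per cell. Clustering without the genes discussed here gave 15 clusters. Neutrophil-like, monocyte-like, dendritic-cell-like (DC-like), T-cell-like and smaller classes were named from marker genes. Macrophage-like cluster 5 was led by Pgf, Ppbp and Adamdec1, and macrophage-like cluster 6 was led by Mfge8, Olfml3 and Igf1. Cluster 2, led by Ccl24, Mmp19 and Fn1, had too few leading markers of any class and stayed unnamed, as did the shallow cluster 4, with medians of 1155.5 and 915.5 UMIs in WT and KO. Cluster 7 had 6 neutrophil and 2 monocyte markers among its 60 leading genes. It met the naming rule for neutrophils only, but was kept apart as mixed, with 10.1% of WT and 3.2% of KO cells. Neutrophil-like cells made up 18.2% of WT and 4.5% of KO cells, and DC-like cells 13.4% and 28.3%. Shallow cluster 4 held 6.9% of WT and 15.6% of KO cells. T cells, plasma cells, mast cells and epithelial cells were also present, although Itgam and Itgax, which encode CD11b and CD11c, define the sort. The 2 libraries shared 17 of 6547 barcodes, 6 of them among the cells kept. The row of the deleted gene was not analysed here.

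Levels are given as CPM: a gene's UMIs in a class were divided by the UMIs of every gene there and multiplied by 1000000. Unless a library is named, the level of a class, the order of classes and the share of a gene's UMIs pool both libraries, whose class shares differ. Brackets hold exact 95% intervals, Poisson for a level and conditional binomial for a ratio. These intervals cover counting error only, and not the spread between mice or libraries. A difference between genotypes is given as the log2 ratio of KO over WT.

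The promoters of the genes that moved together or apart are shown first, because Mmp13, Mmp12 and Mmp8 are neighbours on chromosome 9. From the start of Mmp13 (chr9:7272514-7283331) through Mmp12 (chr9:7344381-7369499) to the end of Mmp8 (chr9:7558456-7568485), all on the plus strand of GRCm38, the cluster spans 295972 bases. Sequences of the 250 bases before a RefSeq transcription start (GRCm38.p6) were found for 7 of the 10 genes, and Mmp12 has 2 starts. Capitals mark TGAGTCA or its reverse complement TGACTCA, the letters bound by AP-1, a Fos and Jun dimer long known as a regulator of MMP genes.
Mmp13 (chr9:7272264-7272513, plus strand): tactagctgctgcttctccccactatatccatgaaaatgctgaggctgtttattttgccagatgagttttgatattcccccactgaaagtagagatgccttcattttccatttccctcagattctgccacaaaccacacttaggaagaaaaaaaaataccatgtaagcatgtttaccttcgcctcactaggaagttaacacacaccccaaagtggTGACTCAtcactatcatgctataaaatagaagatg
Mmp12, downstream start (chr9:7347124-7347373, plus strand): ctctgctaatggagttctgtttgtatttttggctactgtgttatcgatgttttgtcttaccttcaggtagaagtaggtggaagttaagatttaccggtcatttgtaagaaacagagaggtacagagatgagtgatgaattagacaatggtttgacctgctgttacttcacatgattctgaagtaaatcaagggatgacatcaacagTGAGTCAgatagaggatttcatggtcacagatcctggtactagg
Mmp8 (chr9:7558179-7558428, plus strand): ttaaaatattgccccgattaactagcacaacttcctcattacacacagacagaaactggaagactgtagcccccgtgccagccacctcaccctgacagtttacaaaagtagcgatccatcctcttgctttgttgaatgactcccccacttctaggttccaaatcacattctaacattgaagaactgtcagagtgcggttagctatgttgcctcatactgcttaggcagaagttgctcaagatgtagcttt
Timp1 (chrX:20869916-20870165, plus strand): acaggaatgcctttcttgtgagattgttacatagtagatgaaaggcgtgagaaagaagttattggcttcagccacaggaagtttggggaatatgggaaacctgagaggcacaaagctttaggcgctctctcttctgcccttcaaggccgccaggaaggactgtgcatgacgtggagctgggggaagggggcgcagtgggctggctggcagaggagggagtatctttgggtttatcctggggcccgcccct
The AP-1 letters stood in 2 of the 8 windows, those of Mmp13 and of the downstream start of Mmp12, with their first base 35 and 44 bases before the start. The same letters were found in 4.46% of the 32851 windows of the table. AGGAAG or its reverse complement CTTCCT, the letters of the ETS-family PEA3 element, stood in 6 of the 8 windows, against 29.5% of all. These matches describe the letters, and no binding was measured. Timp1 (chrX:20870166-20874735), shown for contrast, held no AP-1 letters. Nor did the window of the upstream start of Mmp12 (chr9:7344147-7344396), which is not printed.

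The collagenases and gelatinases of neutrophils were considered first. Mmp8, the neutrophil collagenase stored in specific granules, was highest in neutrophil-like cells at 336 CPM (309 to 365, 556 UMIs). It was followed by mixed cluster 7 at 132 CPM and monocyte-like cells at 82.9 CPM (70.6 to 96.7), which overlapped with shallow cluster 4 at 71.3 CPM (50.9 to 97.0). Macrophage-like clusters 5 and 6 held 9.9 and 6.0 CPM, in the range of T-cell-like cells at 12.2 CPM (4.0 to 28.5). Neutrophil-like cells supplied 48.2% of all Mmp8 UMIs, and mixed cluster 7, kept out of that class, a further 15.7%. Among genes with at least 200 UMIs, the levels of Mmp8 across the 15 clusters were most like those of Fpr1 (Pearson r = 0.969) and Fpr2 (0.954), receptors for formyl peptides, and of Slpi (0.952), a leukocyte protease inhibitor.

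Most Mmp9 UMIs, the transcript of gelatinase B (chr2:164940780-164955850), lay outside the neutrophil-like class. Its highest level was 1177 CPM (1135 to 1220) in macrophage-like cluster 5, followed by shallow cluster 4 at 627 CPM (563 to 696), neutrophil-like cells at 461 CPM (429 to 495) and cluster 2 at 353 CPM (331 to 376). None of these neighbouring intervals overlapped in the pooled counts. WT kept this order, whereas in KO cluster 2 was second at 551 CPM (506 to 599), overlapping with shallow cluster 4 at 503 CPM (428 to 587) and neutrophil-like cells at 421 CPM (326 to 534). Cluster 5 supplied 49.1% of Mmp9 UMIs in WT and 47.1% in KO, and neutrophil-like cells 17.2% and 3.17%. In WT the share of cells with the transcript ran the other way. After thinning to 1000 UMIs per cell, Mmp9 was seen in 35.2% (31.0 to 39.7, exact binomial) of 488 WT neutrophil-like cells and in 18.4% (13.6 to 24.1) of 228 WT cells of cluster 5. In KO the shares were 31.3% (21.6 to 42.4) of 83 and 24.5% (17.8 to 32.3) of 147 cells, and these overlap. T-cell-like cells, taken as a background, showed 12.5% (5.2 to 24.1) of 56 WT and 5.6% (1.8 to 12.5) of 90 KO cells. Whether T-cell-like cells make Mmp9 themselves was not tested. Without thinning, WT shares were 67.1% in neutrophil-like cells, 26.8% in cluster 5 and 15.2% in T-cell-like cells, at median depths of 2799, 5856.5 and 2082.5 UMIs. In KO they were 44.4%, 37.8% and 10.0%, at 1697.5, 5416.5 and 1546 UMIs. The thinned shares of cluster 5 and T-cell-like cells overlap in WT and are apart in KO. Ndst1 (r = 0.906) and Spp1 (0.894) were among the genes with the most similar levels across clusters.

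A few cells therefore carried much of Mmp9. In WT, 27 of 2696 cells held 50% of its 4040 UMIs, and the highest cell alone had 251. Of these 27 cells, 21 belonged to macrophage-like cluster 5 and none to the neutrophil-like class. In KO, 20 of 1999 cells held 50% of 2113 UMIs, and 13 of them belonged to cluster 5. Mmp13 was similarly concentrated, with 38 WT and 19 KO cells holding 50% of its UMIs, whereas 232 WT and 130 KO cells were needed for Mmp14. With so few cells behind Mmp9 and Mmp13, their counting intervals are narrower than the variation between cells.

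**Figure D1:**
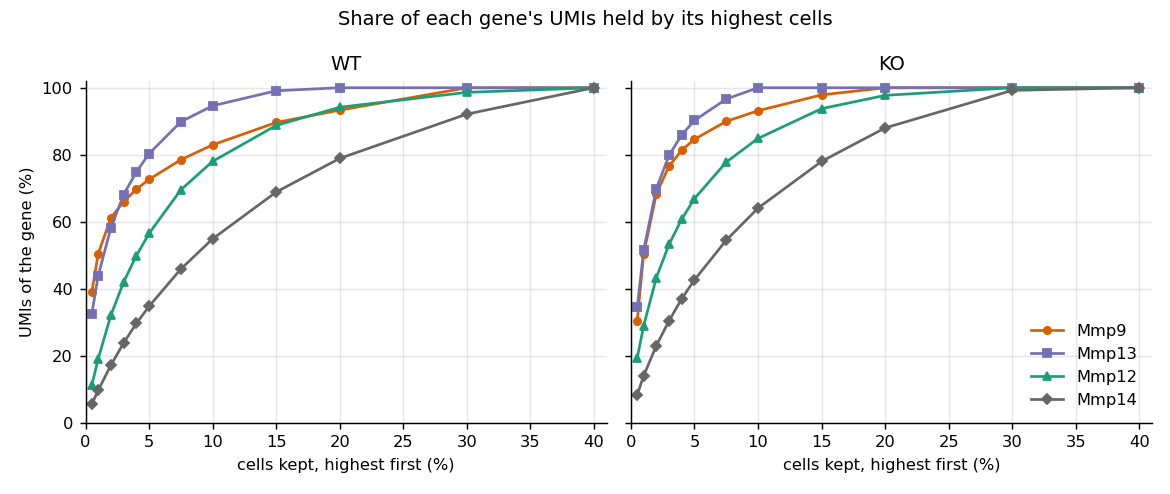
Percent of all UMIs of Mmp9, Mmp13, Mmp12 and Mmp14 (y axis) held by the highest cells, given as percent of cells kept (x axis), in the WT library (left) and the KO library (right). The highest 1% of cells held 50.5% of Mmp9 UMIs in WT and 50.3% in KO, against 9.70% and 14.01% of Mmp14 UMIs.

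The macrophage enzymes made up most of the protease message. Mmp12, the macrophage elastase, was the most abundant member, with 16602 UMIs. It was highest in macrophage-like cluster 6 at 2401 CPM (2349 to 2455), then in proliferating cluster 11 at 1921 CPM, macrophage-like cluster 5 at 1445 CPM and cluster 2 at 1062 CPM (1024 to 1101), each interval apart from the next in the pooled counts. The place of cluster 11 differed between libraries. In WT it had 1513 CPM (1323 to 1723), overlapping with cluster 5 at 1736 CPM (1673 to 1801), and in KO 2279 CPM (2059 to 2516), overlapping with cluster 6 at 2124 CPM (2033 to 2218). Monocyte-like cells had 325 CPM (301 to 352) and overlapped with mixed cluster 7 at 289 CPM. Neutrophil-like cells stood at 31.4 CPM (23.5 to 41.2). Slc29a3 (r = 0.951), Ms4a6c (0.945) and the scavenger receptor gene Msr1 (0.941) had the most similar levels across clusters.

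Mmp13, a collagenase that cleaves fibrillar collagen, was highest in cluster 5 at 1037 CPM (998 to 1077). Cluster 6 followed at 437 CPM (415 to 460), and no other class passed 149 CPM. Its closest genes were Mrc1 (r = 0.970), which encodes the mannose receptor, Ms4a14 (0.970) and Fmn1 (0.969). Mmp12 and Mmp13 had similar levels across clusters (r = 0.93) and were often met in the same cell. Among cells of both libraries thinned to 1000 UMIs, 61.1% of 149 cells with Mmp13 in cluster 5 also had Mmp12, against 37.6% of cells without Mmp13. In cluster 6 the shares were 82.4% and 63.6%, and in cluster 2 they were 79.4% of 34 cells and 39.7%. Mmp8, their neighbour on chromosome 9, had no such likeness to Mmp12 (r = 0.04) or Mmp13 (r = -0.01). In monocyte-like cells, however, 29.5% of 44 cells with Mmp8 also had Mmp12, against 14.6% of cells without Mmp8. The likeness of levels was not particular to neighbours, because Mmp14, on chromosome 14, had r = 0.94 with Mmp12 and 0.89 with Mmp13. These correlations are over 15 clusters of the same 2 libraries and are a description. Presence in the same cell differed from this likeness. In cluster 5, 51.1% of cells with Mmp14 also had Mmp12, against 44.5% of cells without Mmp14. The shares were 64.6% and 68.2% in cluster 6, and 42.4% and 42.0% in cluster 2. In monocyte-like cells they were 23.9% and 12.1%.

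Mmp2, or gelatinase A (chr8:92827291-92853420), was nearly limited to macrophage-like cells. Cluster 6 had 231 CPM (215 to 248), cluster 5 had 162 CPM (147 to 179) and proliferating cluster 11 had 158 CPM (118 to 208), while cluster 2 stood at 10.4 CPM and the remaining classes at 5.3 CPM or less. Intervals of clusters 5 and 11 overlap. Cluster 11 had 246 CPM (173 to 338) in WT, overlapping with cluster 6, and 81.4 CPM (44.5 to 137) in KO. Clusters 6 and 5 held 59.9% and 32.1% of all Mmp2 UMIs. Its nearest genes were Fcrls (r = 0.991), Col14a1 (0.990) and Ctsf (0.989). Fibroblasts are a known source of Mmp2. Over all cells, 8 fibroblast markers summed to 5.6 CPM in WT and 7.1 CPM in KO. Col1a1 had 45 UMIs in each library, and Pdgfra and Bgn had 0 in both. Whether any Mmp2 UMIs came from fibroblasts was not tested.

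Mmp14 (chr14:54431612-54445364) encodes MT1-MMP, a membrane-anchored enzyme that activates the Mmp2 proenzyme. It was the most evenly spread member, at 481 CPM (455 to 509) in cluster 5, 433 CPM (409 to 458) in cluster 2, 391 CPM (364 to 420) in monocyte-like cells and 357 CPM (337 to 378) in cluster 6. Each of these overlapped with the next in the pooled counts. In KO, cluster 2 at 529 CPM (484 to 576) lay apart from monocyte-like cells at 381 CPM (337 to 429). DC-like, T-cell-like and neutrophil-like cells had 28.7, 12.2 and 13.3 CPM. Its levels were closest to Tnfsf12 (r = 0.969), Fn1 (0.956) and Clec4a3 (0.943).

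Mmp19 (chr10:128790910-128800824), a secreted protease active on basement membrane proteins, was highest in cluster 2 at 1005 CPM (969 to 1043), followed by cluster 5 at 886 CPM (850 to 923). The lead of cluster 2 came from WT. In KO, cluster 5 at 757 CPM (701 to 816) and cluster 2 at 704 CPM (653 to 759) overlap. Cluster 6 at 273 CPM overlapped with monocyte-like cells at 252 CPM. Of the 7 MMPs it had the highest level in DC-like cells, 129 CPM (119 to 139), against 7.3 CPM (1.5 to 21.4) in T-cell-like cells. Mmp12 followed there at 59.4 CPM (52.6 to 66.8), against 9.8 CPM (2.7 to 25.0) in T-cell-like cells. Within the DC-like class, WT cells of cluster 3 had 241 CPM (209 to 276), cluster 8 had 110 CPM (86.0 to 139) and cluster 10 had 77.1 CPM (50.4 to 113). Genes with the most similar levels were Plekho1 (r = 0.944), Dpys (0.917) and Cmtm3 (0.910). The antisense genes Tmem198b and Gm47093 overlap Mmp19 and had 578 UMIs together, against 7379 for Mmp19, so that some reads could belong to either if strand was not used in counting.

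Inhibitors were far less abundant than proteases. Timp1 had 482 UMIs and was found mainly in monocyte-like cells at 148 CPM (131 to 166), which held 59.96% of its UMIs, then in mixed cluster 7 at 73.9 CPM. Macrophage-like clusters 5 and 6 had 2.0 and 1.2 CPM, so that Timp1 was scarce where the protease messages were highest. It most resembled the monocyte genes Vcan (r = 0.892), Ms4a4c (0.892) and F13a1 (0.883). Timp2 (chr11:118301069-118355740), which also takes part in activation of Mmp2 by Mmp14, was highest in cluster 6 at 298 CPM (280 to 318). T-cell-like cells at 191 CPM (151 to 238), neutrophil-like cells at 173 CPM (153 to 194), proliferating cluster 11 at 146 CPM and cluster 5 at 136 CPM (122 to 151) followed, each overlapping with the next. Ifi27 (r = 0.875) and Tspan14 (0.859) were its nearest genes.

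Timp3 (chr10:86300372-86349506), a TIMP that stays bound to the matrix, was almost missing from these cells, with 11 UMIs in WT and 9 in KO. Of the 20 UMIs, 7 came from epithelial-like cells, which gave 83.3 CPM (33.5 to 172), and no other class passed 1.8 CPM. Neutrophil-like cells had 0 UMIs.

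**Figure D2:**
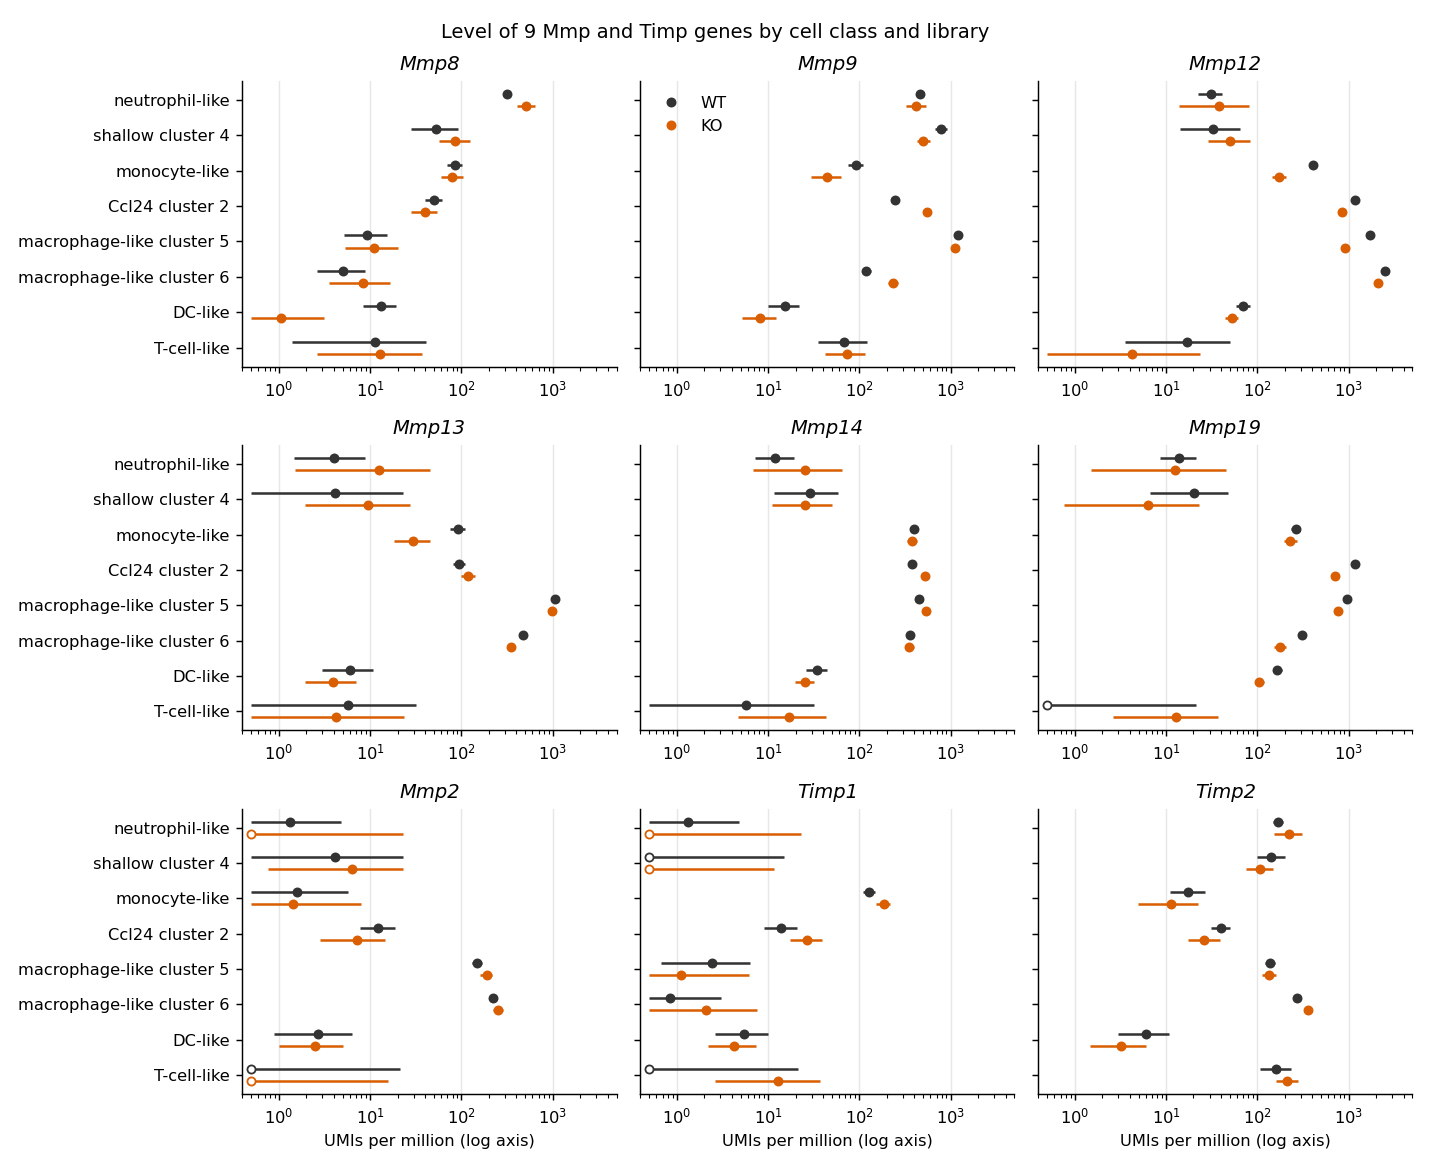
Level in CPM (x axis, log scale) of 9 genes in 8 classes (y axis) in the WT library (black) and the KO library (orange), with exact 95% Poisson intervals as lines. Open circles at the left edge stand for 0 UMIs, and intervals are cut there at 0.5 CPM. Among the 8 classes drawn, Mmp12 peaked in macrophage-like cluster 6, Mmp9 and Mmp13 in cluster 5, Mmp8 in neutrophil-like cells and Timp1 in monocyte-like cells in both libraries, while Mmp19 peaked in cluster 2 in WT and in cluster 5 in KO. Proliferating cluster 11, not drawn, had 2279 CPM of Mmp12 in KO, overlapping with cluster 6.

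Summed over the 7 MMPs, WT cells had 2413 CPM (2385 to 2440) and KO cells had 1658 CPM (1629 to 1687). The 3 TIMPs summed to 139 CPM (133 to 146) and 113 CPM (106 to 121). Per TIMP UMI there were 17.3 MMP UMIs in WT and 14.7 in KO over all cells. Cluster 2 had 56.2 and 51.9, cluster 5 had 39.6 and 33.3, cluster 6 had 14.5 and 9.7, and monocyte-like cells had 9.2 and 4.8. T-cell-like cells had more TIMP than MMP UMIs, with ratios of 0.7 and 0.5. These are ratios of transcripts and not of proteins.

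The genotypes were then compared over all cells. In such a sum, fewer cells of a type and less RNA per cell cannot be told apart. Mmp8 had 73.8 CPM in WT and 32.5 CPM in KO, a log2 ratio of -1.18 (-1.39 to -0.98). Mmp12 had 990 and 587 CPM, a ratio of -0.75 (-0.80 to -0.70). Mmp19 had 431 and 276 CPM, a ratio of -0.64 (-0.72 to -0.57), and Mmp13 had 263 and 188 CPM, a ratio of -0.48 (-0.57 to -0.39). All 4 were thus lower in KO by more than counting error.

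Timp2 was at -0.40 (-0.54 to -0.27), Mmp9 at -0.23 (-0.31 to -0.16), Mmp2 at -0.22 (-0.39 to -0.05) and Mmp14 at -0.13 (-0.21 to -0.04). The ratio of Timp1 was 0.09 (-0.18 to 0.36), whose interval spans 0. Mmp8 was the only one of the 9 genes past 2-fold lower, where 1.71% of the 8470 genes with at least 100 UMIs were, and none was past 2-fold higher, where 2.42% were. The median ratio was -0.40 over the 9 genes and 0.13 over all genes. Scaling by TMM shifts each ratio over all cells by -0.17 and keeps all of these signs except that of Timp1. Cells with 3 or more neutrophil markers made up 58.0% of WT and 21.6% of KO cells in cluster 6 and 49.2% and 18.3% in cluster 5. Without such cells in the monocyte-, macrophage- and DC-like classes, the ratios over all cells were 0.36 for Mmp2, 0.12 for Mmp9, 0.28 for Mmp13 and 0.08 for Mmp14, while Mmp8 stood at -1.52 and Mmp12 at -0.38. Why these cells carry the markers was not tested.

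Part of this moved with the class shares. When KO levels of each class were weighted by the WT shares of UMIs over classes, the ratio of Mmp8 went from -1.18 to 0.30, and that of Mmp12 from -0.75 to -0.42. With both genotypes at the KO shares instead, Mmp8 was at -0.09, so its sign depended on the shares chosen, and Mmp12 at -0.43. Mmp19 changed least, from -0.64 to -0.51, and Mmp13 went from -0.48 to -0.21. Mmp9, Mmp14, Mmp2 and Timp2 turned to 0.16, 0.15, 0.16 and 0.18, and Timp1 went from 0.09 to 0.42.

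**Figure D3:**
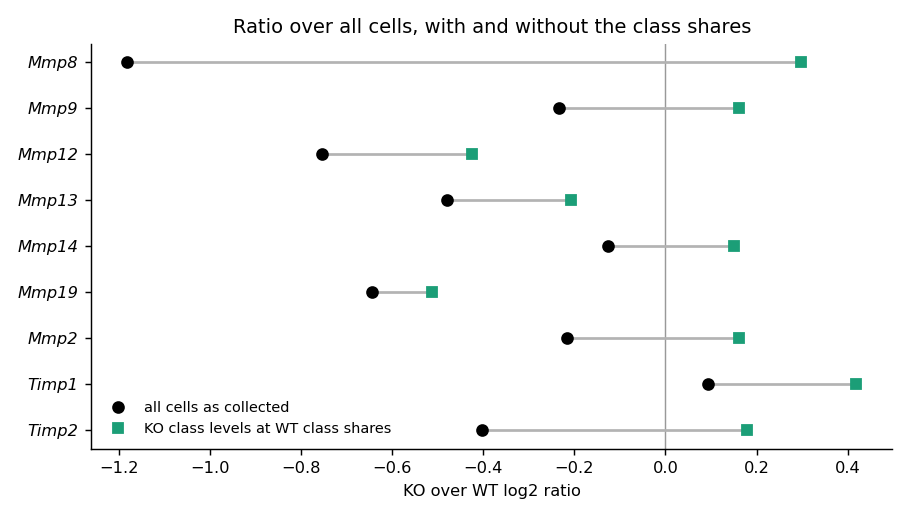
KO over WT log2 ratio (x axis) of 9 genes (y axis) over all cells as collected (black circles) and with KO class levels weighted by the WT class shares of UMIs (green squares). Mmp8 moved from -1.18 to 0.30 (at KO shares, not drawn, it was -0.09), while Mmp12, Mmp13 and Mmp19 stayed below 0.

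Within monocyte-like cells (421 WT and 295 KO cells), 3 macrophage-associated proteases were lower in KO. Mmp12 had 411 CPM in WT and 174 CPM in KO, a ratio of -1.24 (-1.53 to -0.95, 513 and 123 UMIs). Mmp13 had 91.3 and 29.7 CPM, a ratio of -1.62 (-2.37 to -0.94, 114 and 21 UMIs), and Mmp9 had 91.3 and 43.9 CPM, a ratio of -1.06 (-1.68 to -0.47, 114 and 31 UMIs). These were 3 of 7 measured members past 2-fold lower, against 0.915% of 2841 genes. Over the alternatives Mmp13 ranged from -2.89 to -0.86, Mmp9 from -2.43 to -0.44 and Mmp12 from -1.90 to -0.90. All 3 thus lost the 2-fold call in some settings. The share of thinned cells with Mmp12 was 19.3% (15.5 to 23.6) in WT and 10.3% (6.9 to 14.6) in KO. For Mmp9 the shares were 5.1% (3.2 to 7.8) and 2.7% (1.1 to 5.4). For Mmp13 they were 3.6% (2.0 to 6.0) and 1.5% (0.4 to 3.8). The intervals of the genotypes overlap for Mmp9 and for Mmp13, with 7 and 4 KO cells holding a UMI.

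Other members of the monocyte-like class behaved differently. Timp1 was higher in KO, at 184 against 127 CPM, a ratio of 0.53 (0.19 to 0.87). The shares of thinned cells with Timp1, 7.2% (4.8 to 10.2) in WT and 10.3% (6.9 to 14.6) in KO, overlap. Over all cells, 23 WT and 27 KO cells held 50% of Timp1 UMIs. Mmp14 (-0.06), Mmp8 (-0.10) and Mmp19 (-0.20) had intervals that span 0. The summed macrophage markers of the class were 952 CPM in WT and 1094 CPM in KO, so that they were not lower in KO with Mmp12 and Mmp13. Neutrophil markers summed to 2321 and 1574 CPM, and their part in the Mmp9 difference was not tested.

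In cluster 2 (345 WT and 220 KO cells) Mmp9 went the other way. It had 244 CPM in WT and 551 CPM in KO, a ratio of 1.18 (0.99 to 1.36, 438 and 543 UMIs). It was 1 of 6 measured members past 2-fold higher, against 0.325% of 3689 genes. With cells carrying 3 or more neutrophil markers left out, the ratio was 0.99. Neutrophil markers in this cluster were lower in KO, at 3011 against 5867 CPM. After thinning, Mmp9 was found in 12.2% (8.9 to 16.2) of WT and 17.9% (13.04 to 23.6) of KO cells, and these intervals overlap. Mmp14 was also higher in KO, with 381 and 529 CPM and a ratio of 0.47 (0.31 to 0.64).

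Mmp19 in cluster 2 was lower in KO, with 1171 and 704 CPM and a ratio of -0.73 (-0.86 to -0.61). Mmp12 in the same cluster had 1182 and 841 CPM, a ratio of -0.49 (-0.61 to -0.37). The share of thinned cells with Mmp19 was 53.4% (47.9 to 58.9) in WT and 36.7% (30.3 to 43.5) in KO. Mmp19 was lower in KO in every large class in which its interval left 0: -0.34 (-0.47 to -0.21) in cluster 5, -0.81 (-1.06 to -0.57) in cluster 6 and -0.65 (-0.89 to -0.42) in DC-like cells.

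In macrophage-like cluster 5 (254 WT and 164 KO cells), Mmp12 had 1736 CPM in WT and 920 CPM in KO, a ratio of -0.92 (-1.03 to -0.80). Mmp13, at 1066 and 985 CPM, differed little, with a ratio of -0.11 (-0.23 to 0.00) that reaches 0. Mmp2 at 0.35 (0.06 to 0.64) and Mmp14 at 0.27 (0.10 to 0.44) were higher in KO. The ratio of Mmp9 was -0.14 (-0.25 to -0.03), and without the 2% of cells highest in Mmp9 in each library it was 0.41, so its direction rests on single cells. Without cells carrying 3 or more neutrophil markers it was 1.19. Spp1, which encodes osteopontin, an MMP substrate, had 728 and 446 CPM in the same cells.

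In macrophage-like cluster 6 (243 WT and 111 KO cells), Mmp12 was at 2514 and 2124 CPM, a ratio of -0.24 (-0.32 to -0.17), and Mmp13 at 472 and 352 CPM, a ratio of -0.42 (-0.60 to -0.25). The shares of thinned cells with Mmp12, 69.1% (62.9 to 74.9) in WT and 63.1% (53.4 to 72.0) in KO, overlap. Timp2 was higher in KO, with 274 and 358 CPM and a ratio of 0.38 (0.19 to 0.58). Mmp9 had 120 and 233 CPM, a ratio of 0.96 (0.70 to 1.22). Its UMIs lay in only 24 of 243 WT and 9 of 111 KO cells. The shares of thinned cells with Mmp9, 2.9% (1.2 to 5.8) in WT and 4.5% (1.5 to 10.2) in KO, overlap. Over the alternatives its ratio ranged from -0.16 to 4.29. The sign changed under 2 other clusterings, in both of which cluster 5 had no cluster of its own. The value of 4.29 was found without cells carrying 3 or more neutrophil markers. Mmp2 and Mmp14, at 0.18 and -0.02, had intervals that span 0.

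Neutrophil-like cells (490 WT and 90 KO cells) were few in KO. Mmp8 had 317 CPM in WT and 515 CPM in KO, a ratio of 0.70 (0.34 to 1.04), which rests on 82 UMIs in KO. Under 3 alternatives that draw the class otherwise, the ratio was -0.11, -0.03 and -0.03. The share of thinned cells with Mmp8 was 24.0% (20.3 to 28.0) of 488 WT and 30.1% (20.5 to 41.2) of 83 KO cells, and these overlap. Mmp9 in the same class was at -0.14 (-0.53 to 0.22). In the unnamed shallow cluster 4, Mmp9 was lower in KO, at 788 and 503 CPM and a ratio of -0.65 (-0.96 to -0.34). This cluster had only 1 neutrophil marker among its 60 leading genes. TMM scaling shifts ratios by 0.51 in this cluster and by -0.25 in neutrophil-like cells.

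**Figure D4:**
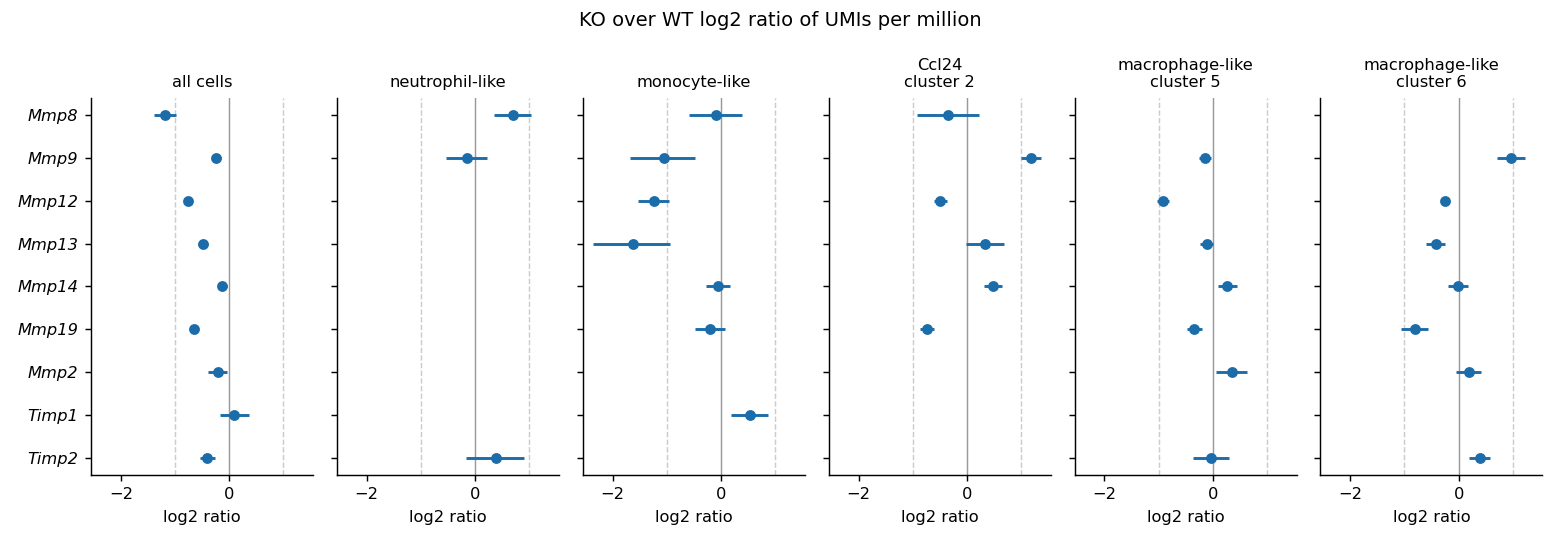
KO over WT log2 ratio (x axis) of 9 genes (y axis) over all cells and in 5 classes, with exact 95% intervals as lines, a solid line at 0 and dashed lines at 2-fold. Genes with fewer than 100 UMIs in a class are not drawn. Mmp9 stood at -1.06 in monocyte-like cells and at 1.18 in cluster 2. Mmp12, not drawn for neutrophil-like cells, was below 0 wherever it is drawn.

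Other genes of the protease system were taken from fixed lists and compared over all cells. Of 16 further Mmp and Timp genes in the matrices, Mmp25 alone reached 100 UMIs. Mmp25, a membrane-anchored MMP first described in leukocytes, had 90.8 CPM in WT and 166 CPM in KO, a ratio of 0.87 (0.75 to 0.99). It was mainly a DC-like transcript here, and within that class it had 491 and 420 CPM, a ratio of -0.22 (-0.35 to -0.10).

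Of 10 partners and regulators of MMPs, 7 were measured and 1 was past 2-fold lower, with a median of -0.38, where 1.71% of all genes were past 2-fold lower and the median was 0.13. The lowest were Lcn2, which encodes lipocalin-2, a partner that binds Mmp9, at -2.03, and Cd44, a surface anchor for Mmp9, at -0.58. The highest were Furin, which activates the Mmp14 proenzyme, and Bsg, an MMP inducer, both at -0.13. Lcn2 is also one of the neutrophil markers, which summed to 10366 CPM in WT and 3648 CPM in KO.

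Of 9 plasminogen activation genes 7 were measured, none past 2-fold, with a median of -0.05. The urokinase receptor gene Plaur was lowest, at 1181 and 603 CPM and a ratio of -0.97, followed by its pathway inhibitor Serpinb2 at -0.90. Plgrkt at 0.31 and Anxa2 at 0.30, which bind plasminogen or its activator, were highest. Plaur was below 0 in each of 6 classes examined, from -1.01 (-1.25 to -0.77) in DC-like cells to -0.16 (-0.30 to -0.02) in cluster 5.

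Of 11 ADAM and ADAMTS protease genes 8 were measured, with a median of -0.12. Adam19 was past 2-fold higher at 1.07 (0.91 to 1.24), where 2.42% of all genes were, and Adamdec1 (-0.45) and Adam8 (-0.24) were lowest, while Adam15 at 0.05 had an interval that spans 0. Of 6 neutrophil granule genes 5 were measured and 3 were past 2-fold lower, against 1.71% of all genes, with a median of -1.68, led by Ngp (-3.96) and Ltf (-1.79), against -0.82 for Hp and -0.14 for Cybb. The 3 neutrophil serine protease genes did not reach 100 UMIs. Of 12 matrix genes 6 were measured, none past 2-fold, with a median of -0.39. Among them Spp1 (-0.79) and Fn1 (-0.60) were lowest, and Col4a1 (0.26) and Vcan (-0.06) were highest, both with intervals that span 0.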

How the data were processed

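Single-cell RNA-seq was made from CD11b+ and CD11c+ polyp cells of 1 WT and 1 KO library with a microwell 3′ kit (SeekOne MM), although another label names 10x Genomics. The deposited matrices hold UMI counts per gene and barcode, made by the authors, whose processing notes list Cell Ranger 2.1.1 and mm10. Whether counting used strand is not given in the sources used here. The limits of the study's methods were applied: 200 to 4000 genes per cell, and no more than 5% of UMIs from mitochondria, which left out 771 WT and 1081 KO barcodes. Counts were scaled to 10000 per cell and log-transformed in Seurat 5.3.0, with 1966 variable features, 20 principal components and resolution 0.7, and the genes of all lists left out of the features. Classes were named from marker genes with at least 3 among the 60 leading genes, except that cluster 7 was kept apart as mixed. Scrublet in scanpy 1.11.5 called 10 of 4695 cells (0.213%), too few to be a working call, and doublets were not removed.

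UMIs were summed per class and library. Ratios were counted past 2-fold among genes with at least 100 UMIs, with a pseudocount of 0.5 UMI for the count. Shares of cells used cells thinned to 1000 UMIs, with shallower cells left out (186 of 2696 WT and 307 of 1999 KO). Likeness was Pearson's r of log2(CPM + 10) over 15 clusters. A count of 0 allows up to 3 counts. With 1 library per genotype no test was run. Ratio code was tested on simulated data. Alternatives included edgeR 4.0.16 TMM scaling. Of the gene identifiers, 32158 of 32285 are in GENCODE M21 (GRCm38), used for positions. Named genes are the 10 members, the 2 highest and 2 lowest of each list, the 3 most alike genes (2 of which are not reported here), class markers and overlapping genes. The members and lists were chosen with earlier results of these data known.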

Additional observations from a re-analysis of the deposited data

Results flagged for a closer look

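The KO over WT log2 ratio of Mmp9 was 1.18 in cluster 2 and -1.06 in monocyte-like cells, and both intervals exclude 0. That of Mmp12 was 0.59 (0.35 to 0.83) in proliferating cluster 11, which held 14 WT and 21 KO cells, and -1.24 in monocyte-like cells. The difference between the classes was not tested in either case, and with 1 library per genotype it could not be.

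Barcodes that the filter left out, most of them for more than 5% mitochondrial UMIs, held more Mmp12 than the cells kept. In WT they had 1073 CPM (1039 to 1108) against 990 CPM in cells kept, and in KO 657 CPM (633 to 682) against 587 CPM. Timp3, near 0 in the cells kept, had 10.0 CPM (7.0 to 13.9) in the WT and 8.24 CPM (5.7 to 11.5) in the KO barcodes left out. Of these, 33 of 36 WT and 33 of 35 KO Timp3 UMIs lay in the 127 and 111 left-out barcodes with a UMI of the epithelial gene Epcam.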

How the results depend on the processing

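For 39 ratios, 637 recomputations were made. Of these, 509 lay within the counting interval of the reported ratio and 128 outside it. The other sign was found in 53, of which 15 were for ratios whose interval excludes 0. Over all cells and in monocyte-like cells, cluster 2 and clusters 5 and 6, Mmp19 and Mmp12 stayed below 0 in every setting that gave a value. Their size varied: Mmp12 came as near 0 as -0.054 in cluster 6 and -0.41 in cluster 5, both outside the reported intervals. Mmp19 came as near as -0.28 in cluster 6 and -0.17 in monocyte-like cells. Some settings, among them the removal of cells with neutrophil markers from cluster 2 and of the highest cells, were chosen after seeing the data.

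Over all cells, leaving out cells with 3 or more neutrophil markers from the monocyte-, macrophage- and DC-like classes gave 0.36 for Mmp2, 0.12 for Mmp9, 0.28 for Mmp13, 0.075 for Mmp14, -1.52 for Mmp8 and -0.38 for Mmp12, and 1.19 for Mmp9 in cluster 5. The mean of each cell's CPM gave -0.87 for Mmp8, and leaving out the 2% of cells highest in the gene gave -1.74. For Mmp12 over all cells, a mitochondrial limit of 10% gave -0.84, no limit -0.85, 500 to 6000 genes per cell -0.62, TMM scaling -0.92 and leaving out the highest 2% of cells -1.01.

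Mmp8 in neutrophil-like cells was -0.11 with 500 to 6000 genes, -0.030 with reciprocal PCA integration and -0.031 with clusters from WT. Mmp12 in monocyte-like cells was -1.64 with 500 to 6000 genes, -1.70 with all variable features, -1.90 with 10 components and -0.90 as a mean over cells. Mmp9 in cluster 2 was 1.56 with 10% mitochondrial UMIs, 1.37 with 500 to 6000 genes, 1.51 without Scrublet calls, 1.51 with all features, 1.70 at the higher resolution, 1.68 and 1.498 with 10 and 30 components, 1.49 with integration, 1.45 with WT clusters, 1.38 without the 5% highest doublet scores and 0.99 without cells with neutrophil markers. Mmp9 in cluster 5 was 0.10 with 10% mitochondrial UMIs, 0.047 with 500 to 6000 genes, 0.15 without Scrublet calls, 0.13 at the lower resolution and 0.41 without the highest 2% of cells. Mmp9 in cluster 6 was -0.063 with 30 components and -0.16 with WT clusters, and 4.29 without cells with neutrophil markers. In monocyte-like cells Mmp9 ranged from -2.43 to -0.44 and Mmp13 from -2.89 to -0.86. The cause was not tested for any of these. In 5 settings 1 macrophage-like class had no cluster of its own and gave no value. Cluster 6 was missing with 10% mitochondrial UMIs, without Scrublet calls and at the lower resolution. Cluster 5 was missing with 30 components and with WT clusters. In these settings the value of the other macrophage-like class can include cells of both.

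With a minimum of 20 UMIs, 2.41% of genes were past 2-fold lower over all cells, 3.00% in monocyte-like cells, and 2.52% past 2-fold higher in cluster 2. No paired analysis was possible because each genotype has 1 library and no test was run.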
